A study of Mus musculus with 78 samples.

Results

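The metabotropic glutamate receptor genes Grm2, Grm3, Grm4, Grm5, Grm7 and Grm8 were followed across 7 brain regions of mice with and without the enzyme ACSS2. These 6 genes were taken as a named list out of 55367 gene symbols in the count tables, with earlier results of these data known. All of them were counted in each of the 78 libraries. Metabotropic glutamate receptors are G-protein-coupled receptors that answer glutamate slowly, beside the fast ion-channel receptors. Group I receptors, here Grm5, couple through Gq to phospholipase C and calcium release and sit mainly around the postsynaptic site. Group II (Grm2, Grm3) and group III (Grm4, Grm7, Grm8) receptors couple through Gi/o, lower cyclic AMP, and often act on presynaptic terminals to reduce transmitter release; Grm3 is also made by astrocytes.

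The series compared ACSS2 KO with WT mice of the C57BL6/J strain, adult, housed singly and of both sexes, with 3 mice of each sex and genotype. ACSS2 is the enzyme that turns acetate, which ethanol breakdown yields, into acetyl-CoA, and the KO is a constitutive deletion made in embryos with a pair of CRISPR guides, so that all tissues lack the segment throughout life. Every mouse, WT included, had been through sessions of ethanol intake early in the dark phase (drinking in the dark), which model binges: after 1 week of habituation, a choice of 2 bottles with water and ethanol at 15% by volume for 2 h on days 1 to 3 and 4 h on day 4, then a week in which sessions offered ethanol without water. No mouse without ethanol is in the series. Dissected amygdala (11 libraries), cortex (11), prefrontal cortex (8), dorsal striatum, ventral striatum, dorsal hippocampus and ventral hippocampus (12 each) gave 40 KO and 38 WT poly(A) RNA libraries, each from 1 region of 1 mouse, and replicates are different mice.

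Values are CPM, counts scaled by the library's total count. Total counts were 4454420 to 14487778 in the 47 libraries of amygdala, both striatal regions and dorsal hippocampus, and 629635 to 1228828 in the 31 libraries of cortex, prefrontal cortex and ventral hippocampus. A value of 3 counts, taken as the floor of detection, stood at 0.207 to 0.673 CPM in the first set and at 2.44 to 4.76 CPM in the second. Depth and region cannot be told apart between these sets, so regions were tested against each other only within a set. Acss2 was below all WT libraries in all KO libraries, with 0.971 to 13.96 CPM in KO and 35.9 to 73.8 CPM in WT, and was called lower in 7 of 7 regions (log2 fold change -3.27 to -2.69, edgeR's quasi-likelihood test, largest Benjamini-Hochberg adjusted p 5.14e-04).

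Markers of striatal projection neurons (summed CPM of Drd1, Drd2, Adora2a, Ppp1r1b, Rgs9 and Pde10a) went against the region label in 5 libraries. The dorsal striatum libraries of male KO mouse 10 and female WT mouse 23 had sums of 309 and 189 CPM, against 2828 to 6099 CPM in the other 10. Ventral striatum libraries of male KO mouse 10 and male WT mouse 13 had 624 and 243 CPM, against 896 to 6229 CPM in the other 10. The ventral hippocampus library of female KO mouse 6 had 2474 CPM, against 113 to 180 CPM in the other 11. Summed markers of excitatory neurons were 2047 and 2143 CPM in the dorsal pair, and 970.5 and 125 CPM in the ventral pair. The limit of 800 CPM was set after the values were seen and applied to striatum and hippocampus. Above it in other regions were the amygdala of female KO mouse 6 (1107 CPM) and the prefrontal cortex of male KO mouse 1 and female KO mouse 5 (941.7 and 1455 CPM), which were left out in a separate fit. The nearest striatal library kept, the ventral striatum of female WT mouse 11, had 896 CPM of these markers and 8.08 CPM of Grm2. Other marker lists were not used to choose libraries. Sums of excitatory neuron markers went down to 559 CPM in WT dorsal hippocampus (WT median 1771 CPM) and 244 CPM in WT amygdala (WT median 1352 CPM). Choroid plexus markers summed to 9034 CPM in a KO amygdala library (KO median 79.9 CPM). These libraries stayed in the fit without the 5. All libraries of a region enter the values below unless a sentence says that libraries were left out. One more library, from the prefrontal cortex of female WT mouse 23, went against its sex label. In dissected tissue, fewer cells of a type and less RNA per cell cannot be told apart.

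All 6 genes are protein coding in the GENCODE M21 annotation of GRCm38. Grm2 lies on the minus strand at chr9:106643095-106656082, Grm3 on the minus strand at chr5:9485541-9725170 and Grm4 on the minus strand at chr17:27422387-27521403. Grm5 lies on the plus strand at chr7:87584168-88134907, Grm7 on the plus strand at chr6:110645581-111567230 and Grm8 on the minus strand at chr6:27275119-28135178. The exonic lengths run from 3.049 kb (Grm3) to 10.247 kb (Grm5). Each gene except Grm3 overlaps 1 antisense gene, and no source used here states that counting used the strand, so reads of an antisense partner cannot be told apart from those of the receptor.

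Grm2 and Grm3 are close relatives whose levels differed in opposite directions between striatum and the other regions of the deeper set, so the bases just before their start sites are shown, from RefSeq on GRCm38.p6. Each run is the 250 bases upstream of the start, read on the minus strand, and capitals mark the GC box GGGCGG.

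Grm2, chr9:106656110-106656359, minus strand: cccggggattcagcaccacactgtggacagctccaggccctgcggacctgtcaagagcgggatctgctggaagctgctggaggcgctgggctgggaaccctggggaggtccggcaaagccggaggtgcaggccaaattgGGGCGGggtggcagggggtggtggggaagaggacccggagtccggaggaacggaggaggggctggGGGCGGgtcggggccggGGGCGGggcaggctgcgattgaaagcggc
Grm3, chr5:9725353-9725602, minus strand: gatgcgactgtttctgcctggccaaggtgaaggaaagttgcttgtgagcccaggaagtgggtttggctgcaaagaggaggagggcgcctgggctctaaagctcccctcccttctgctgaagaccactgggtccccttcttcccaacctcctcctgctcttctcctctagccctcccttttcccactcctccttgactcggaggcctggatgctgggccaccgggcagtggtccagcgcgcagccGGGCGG

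The Grm2 window was 71.2% G and C, above 92.2% of 32817 windows of the same length in the RefSeq table, and the Grm3 window 62.4%, above 77.5%. Read on both strands, Grm2 held 3 GC boxes and Grm3 held 1. At least 1 GC box is present in 32.72% of all windows and 3 or more in 8.47%. The cyclic AMP response element TGACGTCA (1.55% of windows), the E-box CANNTG (66.22%) and the TATA box TATAAA (12.37%) were found in neither window. The letters CCAAT (33.83%) occurred once in the Grm2 window and were not in that of Grm3. The table held windows for 4 of the 6 genes, Grm2, Grm3, Grm7 and Grm8. These matches describe letters only and no binding was measured.

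Grm5 encodes the main Gq-coupled glutamate receptor of forebrain neurons and is a drug target in studies of alcohol intake. Its level in the ventral striatum was 336 ± 93.1 CPM (SD, n = 12; lowest 193.9, median 341, highest 477) and in the dorsal striatum 298 ± 91.1 CPM (n = 12; 150.4, 296, 436). In the ventral hippocampus it was 279 ± 44.2 CPM (n = 12; 174, 283, 329). The amygdala (245 ± 55.2, n = 11), dorsal hippocampus (244 ± 51.3, n = 12) and prefrontal cortex (237 ± 49.8, n = 8) were close to each other and their ranges overlapped. Cortex was at the bottom of the order with 144 ± 22.3 CPM (n = 11; 111, 135, 180). Each region overlapped in range with its neighbours in the order, and the highest mean was 2.34-fold the lowest. These ends of the order lie in different depth sets, where depth and region cannot be told apart. Without the libraries with few striatal markers Grm5 was 364 ± 73.2 CPM in the ventral striatum and 326 ± 70.3 CPM in the dorsal striatum (SD, n = 10 each).

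Grm2, a group II receptor of glutamatergic terminals, had the widest regional span of the 6 and was high in hippocampus and low in striatum. The dorsal hippocampus had 96.3 ± 35.6 CPM (SD, n = 12; lowest 39.4, median 93.4, highest 173.8). Prefrontal cortex (57.0 ± 30.9, n = 8), ventral hippocampus (56.5 ± 24.8, n = 12), cortex (50.2 ± 15.3, n = 11) and amygdala (36.5 ± 18.96, n = 11) followed, with overlapping ranges. The dorsal striatum had 12.8 ± 19.1 CPM (n = 12; 0.631, 5.53, 53.5) and the ventral striatum 10.8 ± 12.5 CPM (n = 12; 1.59, 6.45, 37.9). The highest mean was 8.93-fold the lowest. Both striatal highs came from the libraries with few striatal markers. Without these, Grm2 was 4.75 ± 3.82 CPM in the dorsal striatum (n = 10, highest 13.1) and 5.52 ± 2.34 CPM in the ventral striatum (n = 10, highest 8.99), below every dorsal hippocampus library.

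Grm3, the other group II receptor, found on neurons and astrocytes, was highest in the striatum, where Grm2 was lowest. The dorsal striatum had 94.8 ± 14.2 CPM (SD, n = 12; lowest 69.9, median 96.7, highest 119.8) and the ventral striatum 82.4 ± 19.96 CPM (n = 12; 47.2, 86.1, 120.3). Prefrontal cortex had 65.4 ± 18.8 CPM (n = 8) and cortex 59.3 ± 10.3 CPM (n = 11). Ventral hippocampus (43.8 ± 10.6, n = 12), dorsal hippocampus (42.5 ± 7.33, n = 12) and amygdala (37.5 ± 9.34, n = 11) were lowest. All dorsal striatum libraries lay above all dorsal hippocampus libraries (highest 54.6 CPM) and all amygdala libraries (highest 50.3 CPM). Neighbours in the order overlapped. Without the libraries with few striatal markers Grm3 was 99.1 ± 11.2 CPM in the dorsal and 87.8 ± 16.5 CPM in the ventral striatum (n = 10 each).

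Among the group III receptors, Grm4, found on the terminals of striatal output neurons, was highest in the ventral striatum (50.2 ± 18.5 CPM, SD, n = 12; lowest 20.9, median 55.8, highest 71.2) and the dorsal striatum (42.6 ± 17.7, n = 12; 14.2, 41.1, 73.8). It was 35.5 ± 27.7 CPM in the prefrontal cortex (n = 8), where male WT mouse 3 alone had 100.0 CPM and the median was 25.97. Amygdala (20.8 ± 8.72), cortex (20.6 ± 3.503), dorsal hippocampus (19.1 ± 13.4) and ventral hippocampus (17.9 ± 10.6) differed by less than their spread. Grm7, a receptor of the presynaptic active zone, was the flattest across regions, from 46.7 ± 9.60 CPM in cortex (n = 11; 30.2, 48.4, 64.6) to 66.6 ± 10.1 CPM in the ventral striatum (n = 12; 46.2, 68.7, 80.8), a span of 1.43-fold. Grm8, a group III receptor of low abundance, ranged from 8.93 ± 4.11 CPM in the dorsal hippocampus (n = 12; 2.44, 7.82, 18.2) to 26.8 ± 13.1 CPM in the prefrontal cortex (n = 8; 8.78, 24.01, 53.9) and 24.4 ± 12.8 CPM in the amygdala (n = 11; 10.1, 20.7, 47.7). In the ventral hippocampus Grm8 reached down to 1.04 CPM, 1 count, which is below the floor of that depth. Neighbours overlapped in the order of each of these genes too. For each of them the highest and lowest regions lie in different depth sets. Without the libraries with few striatal markers, ventral and dorsal striatum (n = 10 each) had 54.9 ± 16.2 and 47.7 ± 14.3 CPM of Grm4, 68.1 ± 8.54 and 52.02 ± 6.54 CPM of Grm7, and 11.2 ± 5.02 and 17.7 ± 6.18 CPM of Grm8.

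**Figure D1:**
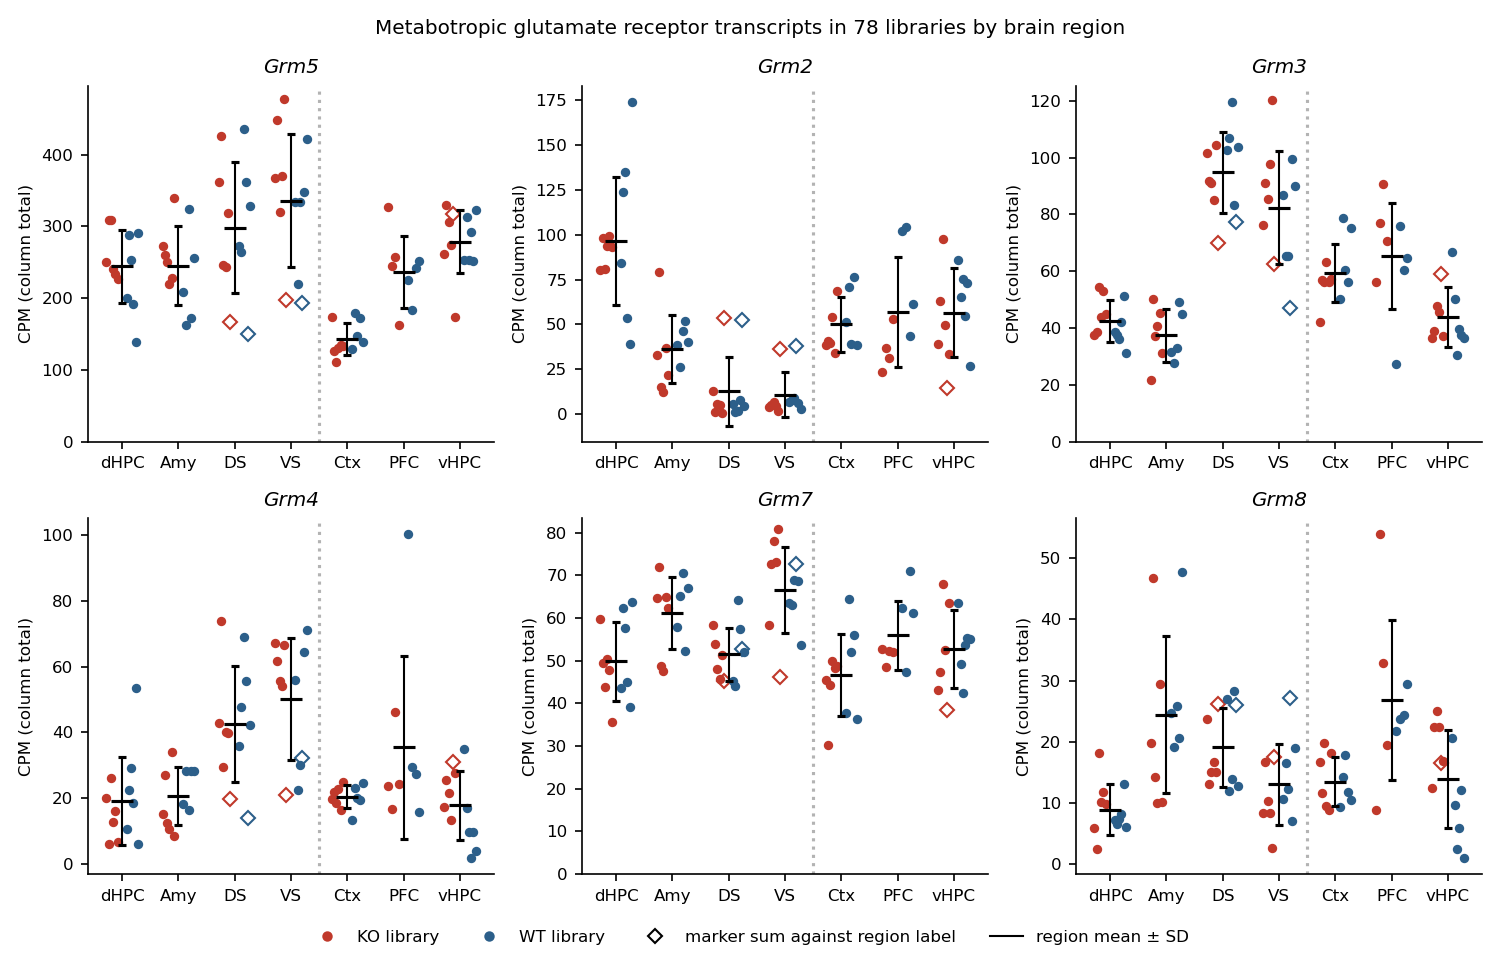
Level of each receptor gene by region in CPM, 1 point per library (red KO, blue WT). Open diamonds are the 5 libraries whose striatal markers go against their region. The mean and SD are of all libraries of the region, and a dotted line parts the deeper from the shallower set. Grm2 is low in both striatal regions apart from 4 libraries between 36.3 and 53.5 CPM, while Grm3 and Grm4 are highest there and Grm7 is nearly level.

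Exonic length is the number of bases in any annotated exon of a gene. Levels of different genes were compared per kilobase of it, and their order depends on that length. On this scale Grm5 had the highest mean in 5 regions, from 23.1 CPM per kb in prefrontal cortex to 32.8 in the ventral striatum, and was the top receptor in 11 of 11 amygdala and 12 of 12 ventral hippocampus libraries. Grm3 had the highest mean in the dorsal striatum (31.1 CPM per kb, top in 8 of 12 libraries) and in cortex (19.5, top in 10 of 11). In CPM, not scaled by length, Grm5 was above Grm3 in dorsal striatum (298 against 94.8) and in cortex (144 against 59.3). Grm8 had the lowest mean in all 7 regions over all libraries, 0.902 to 2.70 CPM per kb. Without the libraries with few striatal markers Grm2 was instead lowest in the dorsal striatum (0.970 ± 0.781 against 1.79 ± 0.624 CPM per kb for Grm8, SD, n = 10), and in the ventral striatum both were at 1.13 CPM per kb (SD 0.477 and 0.508, n = 10). Group II took the largest share of the summed level per kb in cortex (52.5% ± 4.01, SD, n = 11), dorsal hippocampus (47.9% ± 3.59, n = 12), prefrontal cortex (44.5% ± 8.01, n = 8) and dorsal striatum (42.6% ± 6.93, n = 12). Group I took the largest mean share in ventral hippocampus (41.3% ± 6.51), amygdala (40.1% ± 8.16) and ventral striatum (38.9% ± 4.72). Group III ranged from 18.2% in the dorsal hippocampus to 27.3% in the amygdala. Without the same libraries group II had 40.3% ± 4.62 and group I 37.6% ± 3.49 in the dorsal striatum, and 34.3% ± 2.67 and 40.5% ± 3.28 in the ventral striatum (n = 10).

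Which of the group II pair was higher changed with the region and with the scale. In CPM the mean of Grm2 was above that of Grm3 in the ventral hippocampus (56.5 against 43.8). Per kb, the Grm2 to Grm3 ratio had a median of 1.33 in the dorsal hippocampus, where 9 of 12 libraries had more Grm2 than Grm3. It was 0.805 in the ventral hippocampus, 0.588 in the amygdala, 0.53 in cortex and 0.457 in prefrontal cortex. In the striatum it was 0.044 (ventral) and 0.037 (dorsal), and no striatal library reached 1. Without the libraries with few striatal markers these medians were 0.0364 and 0.0310. Within group III, Grm4 was above Grm8 per kb in all 12 ventral striatum libraries (median ratio 7.46) and in 9 of 11 amygdala libraries (median 1.44).

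**Figure D2:**
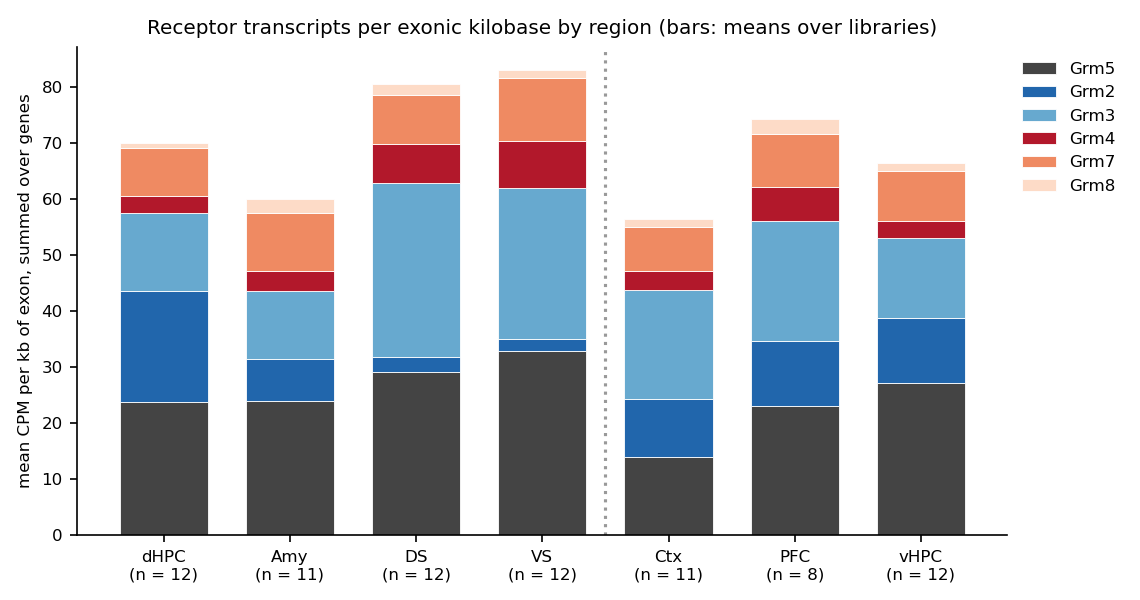
Stacked bars of the mean level of the 6 receptors per kilobase of exonic sequence in each region, in CPM per kb, over all libraries. Grm5 leads in 5 regions and Grm3 in dorsal striatum and cortex; Grm8 is the smallest segment in all 7, but without the libraries with few striatal markers Grm2 is smaller in the dorsal striatum (0.970 against 1.79 CPM per kb).

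Tested within the depth sets, 27 of 54 comparisons of a receptor between regions passed edgeR's quasi-likelihood test at a Benjamini-Hochberg adjusted p of 0.05. Grm3 passed in 6 of 9 region pairs, Grm2, Grm4 and Grm8 in 5, Grm5 in 4 and Grm7 in 2. Regional differences were common among all genes tested, so these counts stand beside the share of all genes called in the same pair. In amygdala over dorsal striatum 3 of 6 receptors were called and 55.6% of all genes. In amygdala over ventral striatum 5 were called (46.9%), and in amygdala over dorsal hippocampus 2 (39.1%). In dorsal over ventral striatum 1 was called (13.7%), in dorsal striatum over dorsal hippocampus 4 (54.7%) and in ventral striatum over dorsal hippocampus 5 (53.9%). In the shallower set, cortex over prefrontal cortex had 2 (39.4%), cortex over ventral hippocampus 2 (29.3%) and prefrontal cortex over ventral hippocampus 3 (30.9%). The median size of the log2 fold change over the 6 receptors was 1.02 in amygdala over ventral striatum (0.26 over all genes) and 1.09 in dorsal striatum over dorsal hippocampus (0.29 over all genes), but 0.18 in cortex over ventral hippocampus (0.20 over all genes).

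Grm2 gave the largest differences, and the other group II gene differed in the opposite direction between striatum and the other regions of the deeper set. Grm2 was lower in the dorsal striatum than in the dorsal hippocampus by a log2 fold change of -3.16 ± 0.49 (SE; adjusted p 5.23e-07, edgeR), and in the ventral striatum by -3.35 ± 0.50 (adjusted p 2.32e-07, edgeR). Grm3 was higher in the dorsal striatum than in the dorsal hippocampus by 1.14 ± 0.12 (adjusted p 9.17e-11, edgeR) and in the ventral striatum by 0.89 ± 0.12 (adjusted p 3.28e-08, edgeR). Against the amygdala the pair split the same way. Grm2 in amygdala over dorsal striatum was 1.62 ± 0.48 and over ventral striatum 1.81 ± 0.48 (log2, SE; adjusted p 0.00396 and 0.00209, edgeR). Grm3 was at -1.37 ± 0.12 and -1.12 ± 0.12 there (adjusted p 3.20e-12 and 1.20e-09, edgeR). Grm2 was also lower in amygdala than in dorsal hippocampus (-1.54 ± 0.46, adjusted p 0.00623, edgeR), a pair in which Grm3 was at -0.23 (adjusted p 0.14, edgeR).

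Leaving out the 5 libraries whose striatal markers go against their region made the Grm2 differences of striatum from dorsal hippocampus and amygdala larger. The difference of amygdala from dorsal hippocampus (-1.49) was not larger. The libraries were chosen by markers with which Grm2 correlated at -0.90 over libraries and -0.73 within regions. The larger values are therefore no separate support for a regional difference. The log2 fold change of Grm2 became -4.34 in dorsal striatum over dorsal hippocampus, -4.195 in ventral striatum over dorsal hippocampus, 2.85 in amygdala over dorsal striatum and 2.71 in amygdala over ventral striatum. The number of called comparisons went from 27 to 31, with all 27 retained. The 4 gained were Grm5 in amygdala over dorsal striatum (-0.45) and dorsal striatum over dorsal hippocampus (0.38), Grm7 in amygdala over dorsal hippocampus (0.24) and Grm4 in cortex over prefrontal cortex (-0.75). With the mouse as a block the count was 29, the 27 plus Grm7 in amygdala over dorsal striatum (0.23, adjusted p 0.0325, edgeR) and in amygdala over dorsal hippocampus (0.25, adjusted p 0.0311, edgeR). The share of all genes called in either fit is not given here, so the gained calls are not read as particular to the receptors.

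The Gq-coupled Grm5 differed most between cortex and ventral hippocampus, where cortex was lower by a log2 fold change of -0.92 ± 0.11 (SE; adjusted p 2.32e-08, edgeR). It was also lower in cortex than in prefrontal cortex (-0.64 ± 0.12, adjusted p 6.68e-05, edgeR). Its smaller differences in amygdala over ventral striatum (-0.47, adjusted p 0.0221, edgeR) and ventral striatum over dorsal hippocampus (0.40, adjusted p 0.0369, edgeR) did not hold when single mice were left out. The first was lost without mouse 2, 5, 6 or 12 (log2 -0.58 to -0.39 over all mice left out) and the second without mouse 1, 2, 3, 5, 6, 23 or 24 (0.32 to 0.47). They passed in 16 and 12 of 20 settings.

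Group III members differed from each other. Grm4 was higher in ventral striatum than in dorsal hippocampus (log2 1.38 ± 0.29, SE; adjusted p 1.04e-04, edgeR) and higher in dorsal striatum than there (1.18 ± 0.29, adjusted p 7.53e-04, edgeR). Grm4 was lower in amygdala than in dorsal striatum (-1.07 ± 0.30, adjusted p 0.0022, edgeR) and ventral striatum (-1.28 ± 0.30, adjusted p 5.00e-04, edgeR). Grm8 was instead highest in amygdala within the deeper set, at 1.38 ± 0.28 over dorsal hippocampus (adjusted p 1.15e-04, edgeR) and 0.93 ± 0.27 over ventral striatum (adjusted p 0.00481, edgeR), and not called over dorsal striatum (0.33, adjusted p 0.301, edgeR). It was higher in dorsal striatum than in dorsal hippocampus (1.05 ± 0.28, adjusted p 0.00143, edgeR). In the shallower set, prefrontal cortex was higher than ventral hippocampus for Grm4 (0.97 ± 0.30, adjusted p 0.0143, edgeR) and Grm8 (0.84 ± 0.28, adjusted p 0.0184, edgeR), and cortex was lower than prefrontal cortex for Grm8 (-0.84 ± 0.29, adjusted p 0.0191, edgeR). The last was lost without mouse 4 or mouse 5 (-1.10 to -0.75 over all mice left out). Without mouse 3, which had the 100.0 CPM library, Grm4 in prefrontal cortex over ventral hippocampus was no longer called (log2 0.69).

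Grm7 was the only receptor called between the striatal regions, lower in the dorsal than in the ventral by -0.34 ± 0.10 (log2, SE; adjusted p 0.0174, edgeR). That call was lost without mouse 4 or mouse 5, with values from -0.38 to -0.29 over all mice left out. Grm7 was also higher in ventral striatum than in dorsal hippocampus (0.35 ± 0.10, adjusted p 0.0026, edgeR). In prefrontal cortex over ventral hippocampus and cortex over ventral hippocampus, Grm3 was higher (0.48 ± 0.14, adjusted p 0.00752, and 0.49 ± 0.13, adjusted p 0.00356, edgeR).

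**Figure D3:**
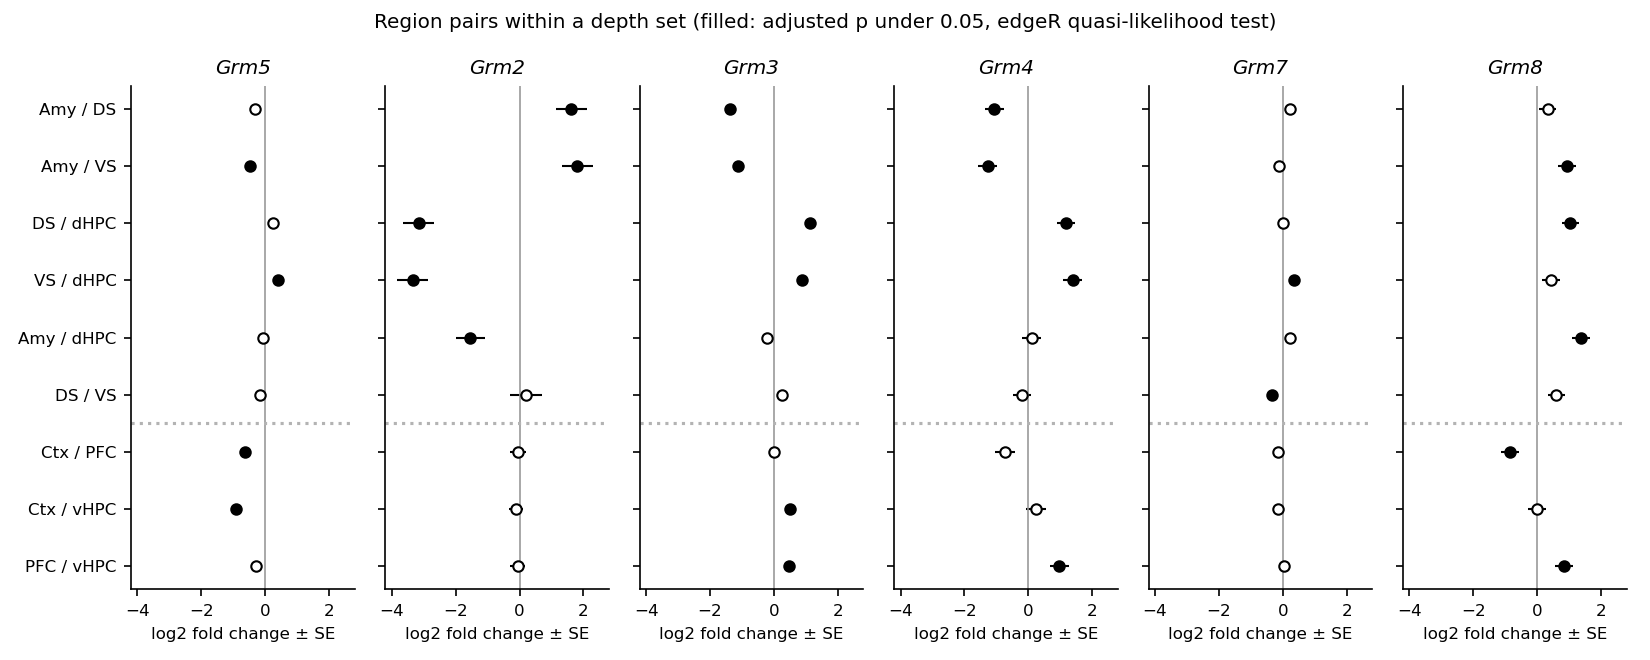
Log2 fold change of each receptor between regions within a depth set, with its SE. Filled points passed edgeR's quasi-likelihood test at an adjusted p of 0.05. Grm2 and Grm3 point opposite ways in the comparisons of striatum with dorsal hippocampus and amygdala, and Grm7 stays between -0.34 and 0.35.

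Library by library, Grm2 was lower where striatal markers were higher. Over 78 libraries the correlation of log2(CPM + 1) of Grm2 with the log of the summed striatal markers was -0.90, and with region means removed -0.73. For Grm3 these values were 0.78 and 0.54, for Grm4 0.67 and 0.40, and for Grm5 0.54 and 0.57. Grm7 (0.19 and -0.08) and Grm8 (0.07 and -0.13) had weak correlations. Over the 73 libraries left without the 5 that go against their region, Grm2 was at -0.90 and, within regions, at -0.38, and Grm3 at 0.80 and 0.42. Within regions Grm4 was then at 0.16 and Grm5 at 0.30. Grm2 also ran with the summed excitatory neuron markers Slc17a7, Neurod6, Tbr1 and Neurod2 (0.80 over libraries and 0.53 within regions). With summed interneuron markers Grm4 was at 0.685 over the 78 libraries and 0.53 within regions, no weaker than with striatal markers. These are descriptions: libraries share mice, regions and depth sets. The part of the tissue's makeup in the regional differences was not tested.

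**Figure D4:**
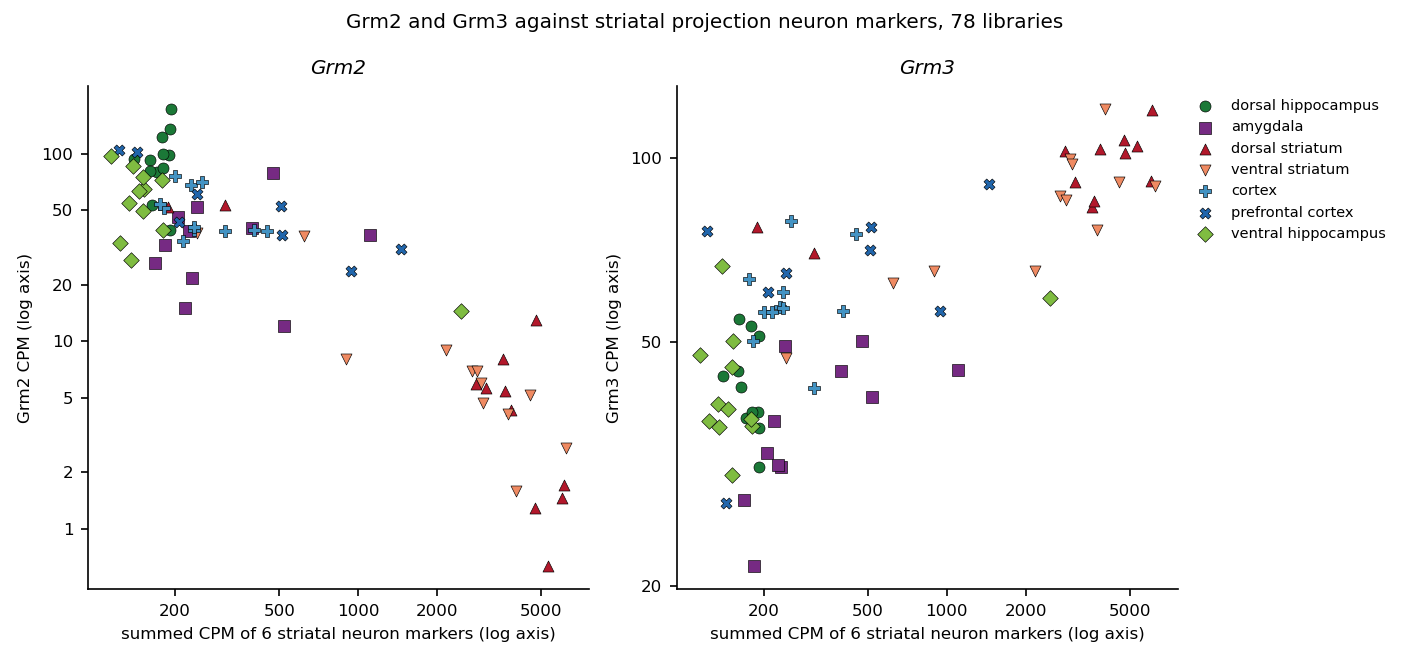
Grm2 (left) and Grm3 (right) in CPM against the summed CPM of 6 striatal neuron markers, 1 point per library, both axes logarithmic. The striatal libraries with few striatal markers (189 to 624 CPM) hold 36.3 to 53.5 CPM of Grm2, and the ventral hippocampus library with 2474 CPM of markers holds 14.5 CPM.

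The genes most like each receptor over the 78 libraries, out of 11758 with a mean of at least 5 CPM, were listed by Pearson correlation of log2(CPM + 1). For Grm2 they were Kcnj3 (0.92), a subunit of G-protein-gated potassium channels, and Dlgap1 (0.92), a postsynaptic scaffold protein. Grm3 was most like Jcad (0.89) and Phactr1 (0.87). For Grm4 they were Elmo1 (0.83) and Pcp4l1 (0.80), and for Grm5 Akap11 (0.86), an anchor of protein kinase A, and Bcl11b (0.86), a transcription factor of striatal and corticofugal neurons. Grm7 (Lonrf2 0.73, Mapre2 0.70) and Grm8 (Dpy19l1 0.76, Garnl3 0.69) had looser matches. Between receptors the correlation was -0.67 for Grm2 with Grm3 and 0.61 for Grm3 with Grm4.

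For the receptors' signalling partners, counts of genes called between regions are given beside the share of all genes called in the same pair. The list held 37 genes: the receptor Grm6, the Gq and Gi/o arms, postsynaptic scaffold, receptor-binding partners, and glutamate supply and clearance. In ventral striatum over dorsal hippocampus 8 were higher and 19 lower of 36 tested (53.9% of all genes), with Homer3 lowest (log2 -3.08). In dorsal striatum over dorsal hippocampus 8 were higher and 17 lower (54.7%; Homer3, -2.78). The scaffold genes, which hold Grm5 at the postsynaptic site, had 1 higher and 6 lower of 7 in both pairs, with a median log2 of -1.23 and -1.05. Amygdala over dorsal striatum had 16 higher and 10 lower (55.6%), led by Slc17a8, the vesicular transporter of a minor glutamate-releasing class (-2.57), and amygdala over ventral striatum 13 and 6 (46.9%; Slc17a8, -2.52). Amygdala over dorsal hippocampus had 4 and 9 (39.1%; Homer3, -2.38) and dorsal over ventral striatum 6 and 2 (13.7%; Slc17a6, -1.60). Of 35 tested in the shallower set, cortex over prefrontal cortex had 9 higher and 9 lower (39.4%; Rgs4, a brake on G-protein signals, 1.68), cortex over ventral hippocampus 7 and 8 (29.3%; Homer3, -2.83) and prefrontal cortex over ventral hippocampus 4 and 5 (30.9%; Homer3, -2.11). Grm6, the receptor of retinal bipolar cells, was at 0 in 6 regions and at most 0.256 CPM in dorsal hippocampus.

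Loss of ACSS2 gave no called difference in any receptor in any region with both sexes together. Of 42 comparisons of KO with WT, edgeR's quasi-likelihood test called 0 at an adjusted p of 0.05 and 3 had an unadjusted p under 0.05. DESeq2's Wald test called 1. Of all genes tested in a region, 1.54% (dorsal striatum) to 8.63% (prefrontal cortex) had an unadjusted p under 0.05 in edgeR. KO and WT ranges overlapped in 42 of 42 comparisons. Overlap was not counted over all genes, so this says nothing particular to the receptors. Few genes were called anywhere: 0.00657% of those tested in the amygdala, 0.00947% in cortex, 0.0069% in dorsal hippocampus, 0.00689% in dorsal striatum, 0.0925% in prefrontal cortex, 0.00929% in ventral hippocampus and 0.00708% in ventral striatum. Of the 37 pathway genes, 34 to 36 were tested per comparison, and edgeR called 0 in any KO comparison. At an unadjusted p under 0.05 were 26 values over the 7 regions with both sexes and 34 over the 13 comparisons within a sex. Within a sex the share of all genes was 1.91% (male dorsal striatum) to 10.6% (female cortex) per comparison.

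In the ventral striatum, the region the series centres on, KO libraries had 363 ± 99.7 CPM of Grm5 and WT libraries 309 ± 85.7 (SD, n = 6 each; KO 198 to 477, WT 194 to 421), a log2 fold change of 0.24 ± 0.24 (SE). Grm3 levels were 88.9 ± 19.6 CPM (KO) and 75.8 ± 19.7 CPM (WT), not apart by more than their spread (0.23 ± 0.17). Grm2 had medians of 4.95 CPM in KO and 7.50 CPM in WT, each with 1 library far above the rest (-0.28 ± 0.59). The ranges overlapped for each of these. For Grm4 the KO mean was 54.3 ± 17.2 CPM and the WT mean 46.1 ± 20.3 CPM (0.25 ± 0.32), for Grm7 68.2 ± 13.3 and 65.1 ± 6.68 CPM (0.06 ± 0.13), and for Grm8 10.6 ± 5.60 and 15.4 ± 7.11 CPM (-0.60 ± 0.37). The adjusted p values from edgeR were 0.658 to 0.892. Leaving out each mouse in turn gave Grm2 log2 values from -1.06 to 0.28. Without the 2 libraries with few striatal markers the values were 0.26 ± 0.19 (Grm5), 0.21 ± 0.16 (Grm3), -0.50 ± 0.35 (Grm2), 0.32 ± 0.29 (Grm4), 0.20 ± 0.11 (Grm7) and -0.53 ± 0.40 (Grm8), with adjusted p values of 0.743 to 0.789 from edgeR.

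Grm2 in the prefrontal cortex came nearest to a called difference. KO libraries had 36.96, 31.1 and 52.9 CPM in female mice 4, 5 and 6 and 23.7 CPM in male mouse 1. WT libraries had 104.5 and 61.2 CPM in female mice 11 and 23 and 43.4 and 101.9 CPM in male mice 12 and 3. KO libraries were lower except that male WT mouse 12 lay below female KO mouse 6. Mean Grm2 was 36.2 ± 12.4 CPM (KO, SD, n = 4) against 77.8 ± 30.3 CPM (WT, n = 4), a log2 fold change of -1.22 ± 0.28 (SE) with an unadjusted p of 4.48e-04 and an adjusted p of 0.0932 from edgeR. DESeq2's Wald test gave -1.24 with an adjusted p of 0.0202. Without the library of mouse 23, which goes against its sex label, the value was -1.47 with an adjusted p of 0.0259 (edgeR), and without mouse 12 it was -1.35 with 0.0268 (edgeR). The marker sums of striatal projection neurons differed between the same groups without overlap, from 507 to 1455 CPM in KO and 122 to 242 CPM in WT, and 5 of 6 of these markers were called higher in KO. Oligodendrocyte markers summed to 2405 to 10710 CPM in KO and 1675 to 3131 CPM in WT, and excitatory neuron markers to 1489 to 1970.4 CPM in KO and 1688.5 to 1960.3 CPM in WT. Without the KO libraries of mice 1 and 5, the highest in striatal markers, Grm2 was at -0.91 ± 0.38 (SE; unadjusted p 0.0333, adjusted p 0.794, edgeR), which leaves 2 KO libraries. The part of these markers in the Grm2 value was not tested.

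In the other 6 regions Grm2 was also below 0 on the log2 scale, from -0.34 in the amygdala to -0.03 in the dorsal striatum, with no adjusted p under 0.823 from edgeR. In the dorsal hippocampus KO libraries had 90.9 ± 8.30 CPM (SD, n = 6) and WT libraries 101.6 ± 51.6 CPM (n = 6), and in the ventral hippocampus 49.6 ± 28.5 and 63.5 ± 20.7 CPM (n = 6 each). In the ventral hippocampus the difference was smaller than the SD of either group, and in the dorsal hippocampus the KO values lay inside the WT range. The fold changes of Grm3 lay between -0.24 and 0.23 over the regions, of Grm5 between -0.18 and 0.24, and of Grm7 between -0.17 and 0.07. Those of Grm4 ran from -0.665 (dorsal hippocampus) to 0.92 (ventral hippocampus). For Grm8 they ran from -0.60 (ventral striatum) to 1.235 (ventral hippocampus).

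Both group III genes with few counts stood higher in KO ventral hippocampus without passing the test. Grm8 was 12.5, 22.4 and 16.8 CPM in male KO mice 1, 2 and 10 and 24.97, 22.3 and 16.6 CPM in female KO mice 4, 5 and 6. WT values were 20.6, 2.43 and 5.96 CPM in male mice 3, 12 and 13 and 9.61, 12.1 and 1.04 CPM in female mice 11, 23 and 24. Only WT mouse 3 lay within the KO range, and the WT values rest on 1 to 13 counts. The log2 fold change was 1.24 ± 0.40 (SE) with an unadjusted p of 0.00705 and an adjusted p of 0.966 from edgeR. The KO mean of Grm4 was 22.8 ± 6.60 CPM (SD, n = 6; 13.6 to 31.1) and the WT mean 12.97 ± 11.98 CPM (n = 6; 1.99 to 34.9), with overlapping ranges. This is a log2 fold change of 0.92 ± 0.42 with an unadjusted p of 0.045 and an adjusted p of 0.966 (edgeR). In these fits 4 of 4 striatal markers tested had a value above 0 in KO (median log2 1.73). The summed striatal markers were high in 1 KO library, that of female mouse 6 (2474 CPM). The other KO libraries had 113 to 180 CPM and WT libraries 133 to 178 CPM. Without the library of female KO mouse 6, Grm8 was at 1.27 (adjusted p 0.919, edgeR) and Grm4 at 0.73 (unadjusted p 0.107).

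**Figure D5:**
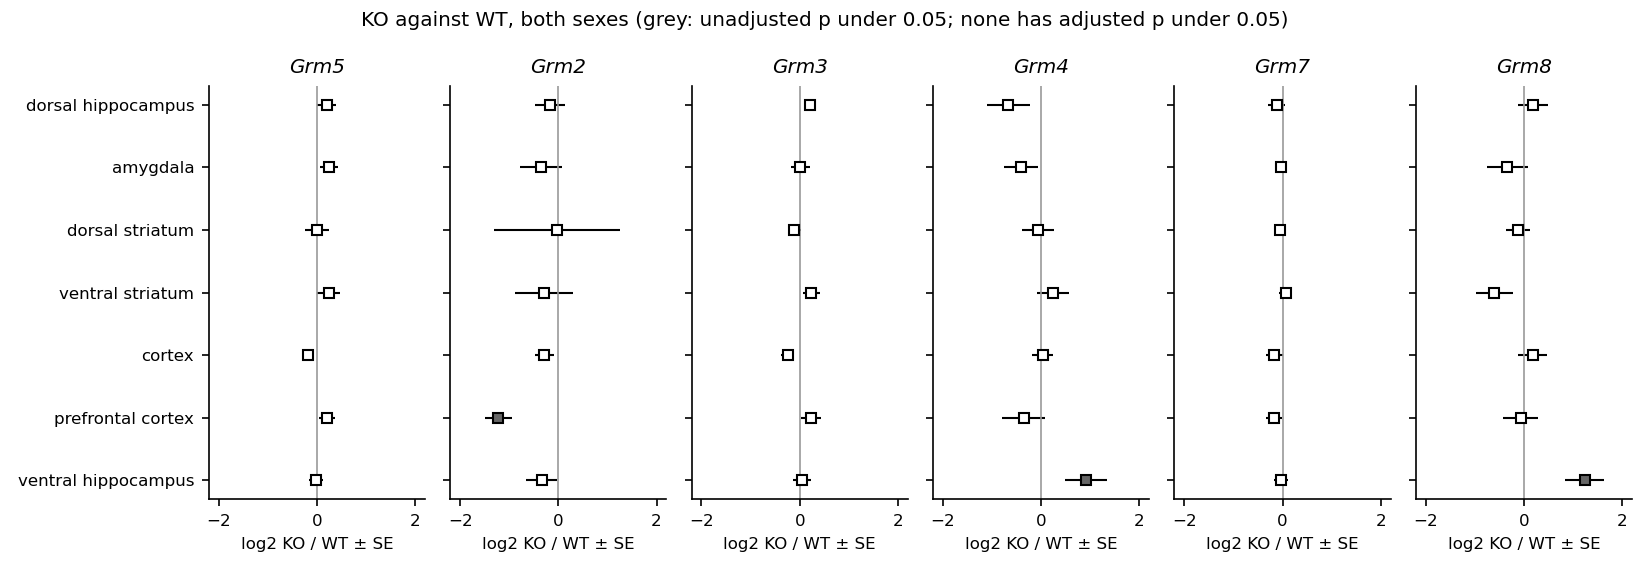
Log2 fold change of KO over WT with its SE (horizontal axis) for each receptor (panels) in each region (rows), both sexes together, from edgeR. The 3 grey points, Grm2 in prefrontal cortex (-1.22) and Grm4 (0.92) and Grm8 (1.24) in ventral hippocampus, had an unadjusted p under 0.05, and no value passed the adjusted threshold.

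Within a sex, edgeR's quasi-likelihood test called 0 of 78 comparisons of KO with WT, DESeq2's Wald test called 0, and 4 had an unadjusted p under 0.05. At this size the test also missed the deleted gene in 5 of 13 comparisons: Acss2, at a log2 fold change of -3.94 to -2.56, was not called in female amygdala or in the dorsal or ventral striatum of either sex (largest adjusted p 0.982, edgeR). In females the share of all genes called was 0% in amygdala, 0.0398% in cortex, 0.00707% in dorsal hippocampus, 0% in dorsal striatum, 0.452% in prefrontal cortex, 0.00993% in ventral hippocampus and 0% in ventral striatum. In males it was 0.00706% in amygdala, 0.0103% in cortex, 0.00721% in dorsal hippocampus, 0% in dorsal striatum, 0.00996% in ventral hippocampus and 0% in ventral striatum. Of all genes, 1.91% (male dorsal striatum) to 10.6% (female cortex) per comparison had an unadjusted p under 0.05 in edgeR. The 4 receptor values under it were Grm2 in male ventral hippocampus (log2 -0.66, adjusted p 0.568, edgeR), Grm2 in female prefrontal cortex (-1.08, adjusted p 0.113, edgeR), and Grm8 (1.52) and Grm4 (1.12) in female ventral hippocampus (both adjusted p 0.996, edgeR). Female prefrontal cortex without mouse 23 leaves 1 WT library, assumed to vary like the KO libraries, and gave Grm2 at -1.39 (adjusted p 0.00247, edgeR). In male ventral striatum the log2 values were 0.25 (Grm3), -0.23 (Grm2), -0.20 (Grm8), 0.28 (Grm5), -0.17 (Grm7) and 0.38 (Grm4). Without the 2 male libraries with few striatal markers these became 0.19, -0.72, 0.19, 0.34, 0.04 and 0.63 (unadjusted p 0.0385 for Grm4, adjusted p 0.394 to 0.956, edgeR). Female ventral striatum gave 0.21, -0.36, -1.05, 0.19, 0.29 and 0.10 for the same genes.

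The difference of the KO effect between the sexes was tested in 6 regions, and edgeR and DESeq2 called 0 of 36. All genes together gave 0% in each of the 6. An unadjusted p under 0.05 in edgeR was found in 1.33% (dorsal hippocampus) to 6.63% (ventral hippocampus) of all genes. Grm2 in the dorsal striatum alone had an unadjusted p under 0.05 (log2 -4.47 ± 1.91, SE; adjusted p 0.769, edgeR), and without the 5 libraries that go against their region it was 0.02. Female and male mice were compared in 7 regions, with 0 of 42 called by edgeR or by DESeq2's Wald test and 5 at an unadjusted p under 0.05. Genes called by sex were 0.0394% in amygdala, 0.104% in cortex, 0.0414% in dorsal hippocampus, 0.0482% in dorsal striatum, 0.042% in prefrontal cortex, 0.0464% in ventral hippocampus and 0.0425% in ventral striatum. Those with an unadjusted p under 0.05 in edgeR were 2.95% (ventral striatum) to 18.1% (amygdala) of all genes. Grm3 made up 3 of the 5: 93.1 ± 18.1 CPM in females and 71.6 ± 16.5 CPM in males in ventral striatum (SD, n = 6 each; log2 0.41, and 0.24 without the 2 male libraries with few striatal markers), 65.9 ± 10.6 (n = 5) and 53.8 ± 6.61 (n = 6) in cortex (0.30), and 75.8 ± 9.54 (n = 5) and 47.98 ± 17.96 (n = 3) in prefrontal cortex (0.62), with adjusted p values of 0.985, 0.998 and 0.586 from edgeR. Prefrontal cortex Grm8 was at 0.84 (adjusted p 0.76, edgeR). Ventral striatum Grm2 was lower in females by a log2 value of -1.70 (adjusted p 0.985, edgeR), and this became -0.29 without the same 2 libraries.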

How the data were processed

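Per the labels, mRNA was isolated with poly(A) beads from 300 ng of total RNA per library. The authors deposited raw read counts per gene symbol, in a table for each sex. The submitters' processing notes name STAR 2.5.2a, SAMtools 1.1, HTSeq 0.6.1, DESeq2, R 4.0.2 and the build GRCm38 (mm10), without stating their roles. Strand handling, multi-mapping and filters are not given in the sources used here. All library columns were used, and group, sex, region and mouse came from the titles.

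CPM is the count over the library's total. Tests used edgeR 4.0.16 (limma 3.58.1, R 4.3.3): TMM, filterByExpr (minimum count 10, minimum total 15), the quasi-likelihood test on all genes and Benjamini-Hochberg values over all genes tested, with 0.05 as the threshold. Region pairs were fitted in 2 sets by depth with sex and genotype as covariates, KO against WT per region with sex as covariate, and per sex. Alternatives were DESeq2 1.42.0 size factors and Wald test, no filter, the mouse as a block, all 78 libraries in 1 fit, length and GC offsets (loess span 0.5), leaving out each mouse, and, chosen after seeing the data, leaving out 5 libraries or 3 others by their striatal markers. The mouse numbers pair libraries because the labels give the same animal; deviations of same-mouse libraries correlated at a mean of 0.034 in the deeper set (69 pairs) and -0.003 in the shallower set (24 pairs). Without molecular identifiers, the 3-count floor covers counting error alone.

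The receptors and lists were chosen with earlier results of these data known. Some genes of the marker and pathway lists are not reported here. All receptors are named in every comparison. KO fold changes are printed where the unadjusted p was under 0.05 or in the ventral striatum. With both sexes together the others are covered by ranges, and within a sex they are not printed. From the pathway list, the gene with the largest called fold change per region pair is named, and for each receptor the 2 genes with the highest correlation. The fits were tested on simulated data. Python 3.11.15, pandas 2.3.3 and matplotlib 3.10.9 made tables and figures. RefSeq windows were matched by symbol.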

Additional observations from a re-analysis of the deposited data

Results flagged for a closer look

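In 84 groups of gene, region and genotype with 4 to 10 libraries, 12 had a highest or lowest library set apart from the rest by more than Dixon's 95% critical value. Chance flags about 1 in 20 groups, here 4.2. Of the 12, 5 were Grm2: 79.4 CPM in the amygdala of male KO mouse 2, 53.5 in the dorsal striatum of male KO mouse 10, 52.4 in the dorsal striatum of female WT mouse 23, 36.3 in the ventral striatum of male KO mouse 10 and 37.9 in the ventral striatum of male WT mouse 13. The last 4 are the striatal libraries with few striatal markers (189 to 624 CPM). One of these, from mouse 10, also held the low Grm4 value of 20.9 CPM in the ventral striatum. The amygdala library of mouse 2 had 473 CPM of striatal markers, inside the range of the region.

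For Grm3, the cortex of male KO mouse 1 was low at 42.2 CPM. Grm4 was high at 100.0 CPM in the prefrontal cortex of male WT mouse 3. Interneuron markers summed to 1832 CPM in that library, against 671 to 1095 CPM in the other libraries of the region. The part of these markers in the Grm4 value was not tested. Grm7 was low at 30.2 CPM in the cortex of male KO mouse 2 and at 48.6 CPM in the prefrontal cortex of female KO mouse 4. Grm8 was high at 47.7 CPM in the amygdala of female WT mouse 24 and at 13.2 CPM in the dorsal hippocampus of female WT mouse 23.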

How the results depend on the processing

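Region-pair calls numbered 25 to 31 over the settings, and 24 to 29 with single mice left out. With all 78 libraries in 1 fit, Grm8 in cortex over prefrontal cortex and Grm4 and Grm8 in prefrontal cortex over ventral hippocampus were not called. The mouse block gave 29 calls and lost none. The share of all genes called per setting is not given for region pairs, so these counts are not read as particular to the receptors. The 42 regional levels moved by less than 1 SD with TMM scaling.

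Of the 42 KO comparisons with both sexes, no low-count filter called 2, DESeq2's Wald test 1, the fit without the prefrontal cortex library of mouse 23 called 1, and single mice left out gave 0 to 1 (mice 12 and 23). Of the 78 within a sex, no filter called 2 (Grm4 in male dorsal hippocampus, -0.79, adjusted p 0.0222, edgeR, and Grm2 in female prefrontal cortex), the fit without mouse 23's prefrontal cortex library 1, and single mice left out 0 to 1. Without the filter edgeR also called 367 genes in prefrontal cortex in place of 11, and Grm8 in ventral hippocampus (adjusted p 0.0103, edgeR). Apart from these 367, the number of all genes called in these settings is not given here. The calls are therefore not read as particular to the receptors.

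Signs turned in comparisons that were not called; the cause was not tested. Without the 5 libraries these were Grm2 in dorsal over ventral striatum (-0.15), Grm7 in prefrontal cortex over ventral hippocampus (-0.001), Grm8 (0.19) and Grm7 (0.039) in male ventral striatum, and the sex difference of Grm2 in dorsal striatum (0.016). In cortex over prefrontal cortex, Grm3 was -0.027 with the mouse block, -0.024 with all libraries in 1 fit and 0 without mouse 23's library, and Grm2 was 0.006 with the block. Grm8 in cortex over ventral hippocampus was -0.002 with DESeq2 size factors, -0.011 with no filter and -0.016 with all libraries in 1 fit, which gave Grm2 in prefrontal cortex over ventral hippocampus as 0.058. Without the 3 amygdala and prefrontal cortex libraries over 800 CPM of striatal markers, also chosen after seeing the data, the latter was 0.16, and Grm5 was called lower in that pair (-0.435, adjusted p 0.00644, edgeR). Leaving out single mice turned 16 of 85 values: Grm2 -0.19 to 0.11 and Grm3 -0.088 to 0.081 (cortex over prefrontal cortex); Grm2 -0.22 to 0.042 and Grm8 -0.15 to 0.12 (cortex over ventral hippocampus); Grm2 -0.23 to 0.14 and Grm7 -0.046 to 0.094 (prefrontal cortex over ventral hippocampus). In the deeper set they were Grm2 -0.37 to 0.62 (dorsal over ventral striatum), Grm4 -0.047 to 0.26 (amygdala over dorsal hippocampus) and Grm7 -0.038 to 0.07 (dorsal striatum over dorsal hippocampus). In KO over WT of the ventral striatum, Grm2 ran from -1.06 to 0.28 with both sexes. Males gave Grm2 -1.90 to 0.95, Grm8 -0.45 to 0.34 and Grm5 -0.016 to 0.56, and females Grm2 -0.81 to 0.017, Grm5 -0.036 to 0.46 and Grm4 -0.26 to 0.43.

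Depth limits Grm8 and Grm4 in the ventral hippocampus, where single libraries held as few as 1 and 2 counts.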
